A study of Mus musculus with 4 samples.

Results

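The proteasome subunit genes were followed in mouse pre-B cells, the bone marrow stage at which the immunoglobulin heavy chain has been assembled and the light chain has not. They were taken as the gene symbols that begin with Psma, Psmb, Psmc, Psmd, Psme, Psmf or Psmg and end in a number, without the immunoproteasome genes Psmb8, Psmb9 and Psmb10, that reached 1 FPKM in any of the 4 libraries. FPKM counts fragments per kilobase of transcript, scaled to the mapped fragments of the library, so levels of different subunits can be set beside each other. Of 23284 symbols in the files, 45 matched the pattern and 43 passed the level. Both that did not, Psma8 of testis and Psmb11 of thymic cortex, were below 1 FPKM in all 4 libraries, with highest values of 0.155 FPKM and 0.715 FPKM, while the lowest value of any member was 7.02 FPKM.

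The 26S proteasome is the protease that degrades ubiquitin-tagged proteins. Its 20S core is a stack of alpha and beta rings, with the cutting sites inside the beta rings, and a 19S cap of ATPases and non-ATPase subunits recognises, deubiquitinates, unfolds and feeds in the substrate. The core can also be capped by PA28 (Psme1 with Psme2, or Psme3) or PA200 (Psme4), it is built with the help of dedicated chaperones, and interferon exchanges its cutting subunits for the immunoproteasome forms.

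The study asked which pathways the adaptor protein STAP-2 acts on in B cell production under stress of the blood system. Total RNA of pre-B cells of C57BL/6J mice was sequenced as 4 stranded mRNA libraries, 1 per group and so with no replicate check on any difference. The groups were STAP-2 knockout marrow and wild-type marrow, both 1 month after transplantation, and STAP-2 transgenic marrow and wild-type marrow, both at steady state. The labels do not give the promoter of the transgene, the deleted exons, the recipients of the transplants, the age of the mice or whether animals were pooled.

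Depth estimated from the FPKM steps was 8700000 reads in the library labelled knockout, 7770000 in wild type after transplantation, 7280000 in transgenic and 7340000 in wild type at steady state. All 12 pre-B markers were read in every library, with a summed level of 7570 to 8376 FPKM, much of it from Cd79a, Cd79b and Vpreb3. The surrogate light chain genes, which mark the earlier pre-B stage, did not follow that sum. Vpreb1 was read at 38.6 FPKM in the library labelled knockout, 30.2 FPKM in wild type after transplantation, 34.4 FPKM in the transgenic library and 7.31 FPKM in wild type at steady state. Igll1 was read at 49.7 FPKM in the library labelled knockout, 36.4 FPKM in wild type after transplantation, 39.9 FPKM in the transgenic library and 14.6 FPKM in wild type at steady state, so that wild type at steady state stood alone below the other 3 in both. Of the other pre-B markers, Rag1, Rag2, Ebf1, Pax5 and Cd24a were highest in wild type at steady state. Rag1 was read there at 638.1 FPKM, against 286.3 to 453.5 FPKM in the other libraries. Stap2 itself was near the limit of reading, at 0.179 FPKM (about 2 reads) in the library labelled knockout, 0 FPKM in wild type after transplantation, 0.536 FPKM (about 5 reads) in the transgenic library and 0.212 FPKM (about 2 reads) in wild type at steady state. These reads check neither genotype label, and the library labelled knockout lay above its wild type. The title codes are the same within each genotype pair and differ between both wild-type libraries, so that code and transplantation cannot be told apart. In bulk RNA, fewer cells of a type and less RNA per cell cannot be told apart either. RNA of other cells differed between the libraries. The 10 neutrophil markers, all above 0 in every library, summed to 642.8 FPKM in the library labelled knockout, 1666 FPKM in wild type after transplantation, 1827 FPKM in the transgenic library and 760.7 FPKM in wild type at steady state. Summed monocyte or macrophage markers ranged from 19.9 to 46.1 FPKM over 6 genes, erythroid markers from 5.10 to 36.5 FPKM over 6 genes, plasma cell markers from 90.7 to 416.6 FPKM over 4 genes, and T or NK cell markers from 3.86 to 8.82 FPKM over 6 genes, of which 1 was at 0 in each library but wild type at steady state. Most of the plasma cell range was Igj alone, at 7.23 to 305.7 FPKM. Most of the erythroid range was Hba-a1, at 3.89 to 32.6 FPKM.

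The 300 bases around the start of 8 genes are shown because they are the genes at least 25% higher or 20% lower in a comparison, with Psme4 as the activator that lay on the other side of wild type at steady state from PA28. RefSeq windows on GRCm38.p6, from 250 bases before the start to 50 after it, were matched for 36 of the 43 genes. No window was matched for Psmb1, Psmb2, Psmb7, Psmc3, Psmd3, Psmd7 and Psmg2. Each is printed 5′ to 3′ along its gene, and capitals mark the interferon-stimulated response element core (GAAA, any 2 bases, GAAA), the ETS site CCGGAAG or the NRF1 site (GCGC on both sides of AT), on either strand.
Psme1 (chr14:55578244-55578543, plus strand): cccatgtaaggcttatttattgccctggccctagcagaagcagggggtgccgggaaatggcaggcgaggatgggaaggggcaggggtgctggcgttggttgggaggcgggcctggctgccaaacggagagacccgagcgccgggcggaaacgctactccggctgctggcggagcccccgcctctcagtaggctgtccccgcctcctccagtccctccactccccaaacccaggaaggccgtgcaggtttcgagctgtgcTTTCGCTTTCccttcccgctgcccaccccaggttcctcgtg
Psme2 (chr14:55591052-55591351, minus strand): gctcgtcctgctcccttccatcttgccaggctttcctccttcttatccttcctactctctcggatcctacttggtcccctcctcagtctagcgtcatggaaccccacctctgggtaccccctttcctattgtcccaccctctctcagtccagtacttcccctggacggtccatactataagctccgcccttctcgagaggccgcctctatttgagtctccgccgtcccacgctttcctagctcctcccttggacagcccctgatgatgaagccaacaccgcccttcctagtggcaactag
Psme4 (chr11:30771525-30771824, plus strand): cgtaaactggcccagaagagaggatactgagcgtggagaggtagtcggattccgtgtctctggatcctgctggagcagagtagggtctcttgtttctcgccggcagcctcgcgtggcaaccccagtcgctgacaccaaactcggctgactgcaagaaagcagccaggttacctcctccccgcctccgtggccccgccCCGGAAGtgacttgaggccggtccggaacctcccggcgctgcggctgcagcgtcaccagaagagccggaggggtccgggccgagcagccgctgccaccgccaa
Psmg1 (chr16:95990911-95991210, minus strand): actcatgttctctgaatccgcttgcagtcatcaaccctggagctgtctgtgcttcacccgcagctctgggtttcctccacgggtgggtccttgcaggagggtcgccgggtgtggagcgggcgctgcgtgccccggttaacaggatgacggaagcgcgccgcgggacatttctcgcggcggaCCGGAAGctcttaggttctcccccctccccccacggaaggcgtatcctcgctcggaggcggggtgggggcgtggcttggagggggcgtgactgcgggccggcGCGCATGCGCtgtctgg
Psmg3 (chr5:139826845-139827144, minus strand): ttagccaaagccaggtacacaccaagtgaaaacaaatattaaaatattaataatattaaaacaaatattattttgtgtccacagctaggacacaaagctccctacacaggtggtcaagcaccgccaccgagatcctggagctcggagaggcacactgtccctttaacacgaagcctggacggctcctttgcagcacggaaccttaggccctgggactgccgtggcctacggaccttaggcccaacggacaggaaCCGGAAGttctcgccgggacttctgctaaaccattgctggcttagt
Psmg4 (chr13:34162714-34163013, plus strand): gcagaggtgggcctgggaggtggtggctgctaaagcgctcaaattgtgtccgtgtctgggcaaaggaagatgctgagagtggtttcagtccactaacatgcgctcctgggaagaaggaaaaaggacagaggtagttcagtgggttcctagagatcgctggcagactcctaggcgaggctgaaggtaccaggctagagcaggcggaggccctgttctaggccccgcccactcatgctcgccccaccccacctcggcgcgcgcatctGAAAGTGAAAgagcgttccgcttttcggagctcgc
Psmd5 (chr2:34870913-34871212, minus strand): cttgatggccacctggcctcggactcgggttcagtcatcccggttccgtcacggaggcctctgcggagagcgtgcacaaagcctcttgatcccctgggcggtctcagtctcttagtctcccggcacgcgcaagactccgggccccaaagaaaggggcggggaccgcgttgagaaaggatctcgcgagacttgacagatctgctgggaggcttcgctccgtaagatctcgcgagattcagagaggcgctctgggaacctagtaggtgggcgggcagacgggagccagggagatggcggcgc
Psmb3 (chr11:97703184-97703483, plus strand): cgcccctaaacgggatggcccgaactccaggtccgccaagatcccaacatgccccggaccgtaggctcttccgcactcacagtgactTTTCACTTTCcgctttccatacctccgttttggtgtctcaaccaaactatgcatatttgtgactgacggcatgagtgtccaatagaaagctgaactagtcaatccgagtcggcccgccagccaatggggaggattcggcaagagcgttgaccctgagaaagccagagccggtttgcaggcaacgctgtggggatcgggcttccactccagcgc
The motifs were chosen after the values of the genes were seen. The interferon-type core is at bases 10 to 19 after the start of Psme1, at bases 16 to 25 after the start of Psmg4 and at -163 to -154 in Psmb3. It was in 5 of the 36 windows (13.9%), also those of Psmd4 and Psmd9, against 3.99% of 27025 genes with a window and 3.82% of the 7906 of them at 1 FPKM or more. The ETS site was in 14 of the 36 windows (38.9%), against 9.93% of all genes and 21.8% of those at 1 FPKM or more, and among the printed genes it is in Psme4, Psmg1 and Psmg3. The NRF1 site, of which Psmg1 carries one at bases 34 to 43, was in 2 of the 36 windows (5.56%), the other being that of Psma2, against 1.07% of all genes and 2.58% of those at 1 FPKM or more. NRF1 here is nuclear respiratory factor 1, a different protein from Nfe2l1, which is also called NRF1. Of motifs not marked, the antioxidant response element core TGACNNNGC was in 6 of 36 windows (16.7%) against 17.2% of genes at 1 FPKM or more, and the CCAAT box in 12 of 36 (33.3%) against 44.1%. None of the searched motifs is in the printed windows of Psme2 and Psmd5. The marked matches do not overlap each other. A match is a string of letters and not a measured binding site.

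The genes of the 20S core and the 19S cap sat at high levels that changed little between the 4 libraries. Summed over the 43 genes, the level was 3410 FPKM in the library labelled knockout, 3200 FPKM in wild type after transplantation, 3375 FPKM in the transgenic library and 3208 FPKM in wild type at steady state. The order of the 43 levels was nearly the same in any pair of libraries, with Spearman's rho from 0.978 to 0.989 across genes that share library preparation and length. The mean of the 14 core subunits over the mean of the 17 cap subunits was 1.635 in the library labelled knockout, 1.604 in wild type after transplantation, 1.669 in the transgenic library and 1.641 in wild type at steady state. Per length, then, the core genes were read above the cap genes in each library.

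**Figure D1:**
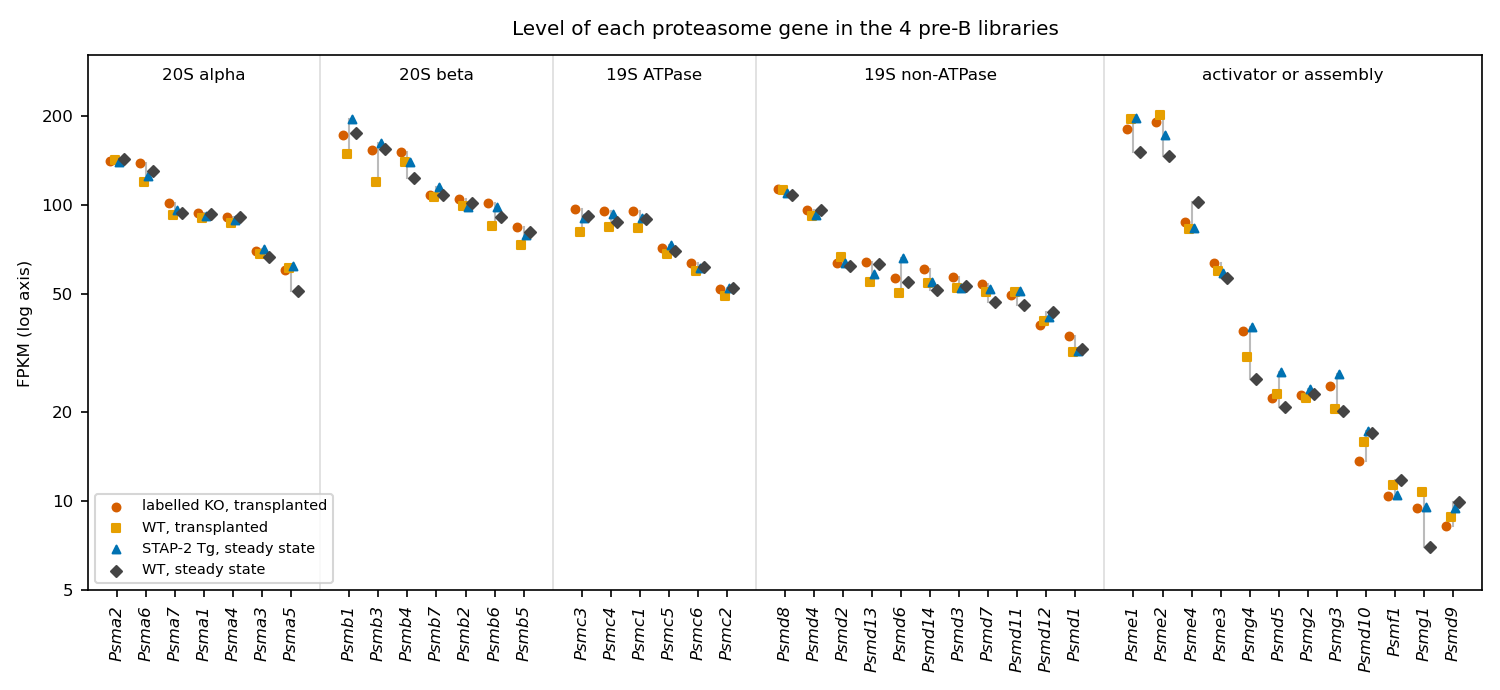
FPKM (log axis) of the 43 proteasome genes in the 4 libraries, by class and ordered by mean level within it; each point is 1 library and grey lines join a gene's lowest and highest value. Core and cap genes lie between 31.9 and 194.7 FPKM, and the activator or assembly class runs from 7.02 to 201.1 FPKM.

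Within the alpha ring, Psma2 was the highest and Psma5 the lowest in every library. Psma2 was read at 140.3 FPKM in the library labelled knockout, 141.5 FPKM in wild type after transplantation, 140.0 FPKM in the transgenic library and 142.9 FPKM in wild type at steady state. It was the steadiest of the 43 genes, its highest library being 1.021 times its lowest. Psma5 was read at 60.2 FPKM in the library labelled knockout, 61.5 FPKM in wild type after transplantation, 62.2 FPKM in the transgenic library and 51.2 FPKM in wild type at steady state, which stood alone below the other 3. The alpha subunits gate the channel of the core.

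Of the beta ring, Psmb1 was the highest and Psmb5 the lowest in every library. Psmb1, which carries no cutting site, was read at 172.9 FPKM in the library labelled knockout, 148.4 FPKM in wild type after transplantation, 194.7 FPKM in the transgenic library and 175.1 FPKM in wild type at steady state. The cutting subunit Psmb5 (chymotrypsin-like) was read at 84.5 FPKM in the library labelled knockout, 73.5 FPKM in wild type after transplantation, 79.1 FPKM in the transgenic library and 80.8 FPKM in wild type at steady state. In both genes wild type after transplantation was the lowest library. Psmb6 (caspase-like) was read at 101.2 FPKM in the library labelled knockout, 84.9 FPKM in wild type after transplantation, 98.7 FPKM in the transgenic library and 90.9 FPKM in wild type at steady state. Psmb7 (trypsin-like) was read at 108.0 FPKM in the library labelled knockout, 106.7 FPKM in wild type after transplantation, 114.6 FPKM in the transgenic library and 107.7 FPKM in wild type at steady state. The 3 constitutive cutting subunits thus stayed within 1.452-fold of each other in any library.

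Of the 6 cap ATPases, which unfold the substrate, Psmc3 had the highest mean and Psmc2 the lowest. Psmc3 was read at 97.2 FPKM in the library labelled knockout, 80.9 FPKM in wild type after transplantation, 90.2 FPKM in the transgenic library and 91.8 FPKM in wild type at steady state. Psmc2 was read at 52.1 FPKM in the library labelled knockout, 49.3 FPKM in wild type after transplantation, 52.3 FPKM in the transgenic library and 52.6 FPKM in wild type at steady state. Of the 11 non-ATPase subunits, Psmd8 of the lid was the highest, at 108.1 to 113.4 FPKM over the libraries. The scaffold subunit Psmd1 was the lowest, at 31.9 to 36.1 FPKM, and Psmd14, the deubiquitinase of the lid, lay at 51.8 to 61.0 FPKM. The ATPases were the most even class, with a coefficient of variation across genes of 20.3% to 24.5%, against 108.1% to 122.2% across the 12 activator or assembly genes.

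That last class held both the highest and the lowest genes. The PA28 genes Psme1 and Psme2 lay above every other member in the library labelled knockout and in wild type after transplantation, and the assembly chaperones Psmd9 and Psmg1 had the lowest means of all. Psmd9 was read at 8.26 FPKM in the library labelled knockout, 8.87 FPKM in wild type after transplantation, 9.46 FPKM in the transgenic library and 9.96 FPKM in wild type at steady state. The inhibitor Psmf1 (PI31) was also low, at 10.5 to 11.8 FPKM. Among the chaperones of the alpha ring, Psmg2 was steady at 22.3 to 23.9 FPKM.

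Few of the 43 genes differed much between libraries. The highest library was at least 25% above the lowest in 10 of 43 (23.3%), against 53.3% of the 10926 genes that reached 1 FPKM in any library and were above 0 in all, and 39.6% of the 7216 that reached 10 FPKM. Only 3 of the 31 core and cap subunits did so (Psmb1, Psmb3 and Psmd6), against 7 of the 12 activator or assembly genes (Psme1, Psme2, Psmg1, Psmg3, Psmg4, Psmd5 and Psmd10). The median ratio of highest to lowest library was 1.117 over the core and cap and 1.28 over the activator or assembly class. Part of that class is read shallowly, Psmg1 by about 43 to 70 reads, Psmg4 by about 50 to 86 and Psmg3 by about 77 to 111.

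In the transgenic library, set against wild type at steady state, 5 of the 43 members were at least 25% higher, a share close to the 11.2% of all genes. All 5 were activators or assembly chaperones. Psme1 and Psmd5 were about 1.3 times as high in the transgenic library, Psmg1, Psmg3 and Psmg4 had ratios of 1.333 to 1.498, and Psme4 was 1.22-fold lower. Differences are in log2(FPKM + 1), which understates the change of low genes, and the ratios given with them are of FPKM itself. The 31 core and cap subunits had a median difference of 0.02 and 17 of them were higher. Rescaling all libraries to the same sum of FPKM, which moved the median of all genes to -0.13 from -0.02, turned that median to -0.10, with 6 of 31 higher. With the 100 highest genes left out of that sum, the median of the 31 was 0.03, with 17 higher.

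Over the 43 genes the median difference, transgenic minus wild type, was 0.03, against -0.02 over 10843 genes, and it turned to -0.09 with the same sum of FPKM. Of the members 26 were higher in the transgenic library, a share to be read against 46.7% of all genes. At least 25% higher, a difference of 0.32 on the log2 scale, were 5 members, a share close to the 11.2% of all genes. At least 20% lower, the same difference downwards, were 0 members, against 8.69%. All 5 belong to the 12 activator or assembly genes, whose median was 0.15, with 9 of 12 higher. With the same sum of FPKM only Psmg4 was still at least 25% higher, the class median was 0.03 with 6 of 12 higher, and Psme4 was at least 20% lower.

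Psme1, the PA28 alpha chain, was read at 196.9 FPKM in the transgenic library and 151.1 FPKM in wild type at steady state, a ratio of 1.303 with a 95% interval of 1.199 to 1.416. These intervals are exact Clopper-Pearson ones from the estimated reads and cover counting error only. Psme2, the PA28 beta chain, was read at 171.9 FPKM in the transgenic library and 145.9 FPKM in wild type at steady state, a ratio of 1.178 (1.058 to 1.313). Both genes lie on chromosome 14, Psme1 at chr14:55578123-55581529 and Psme2 at chr14:55587441-55591113, on opposite strands. Each has an annotated near-identical copy with no row under that name in the files (Gm7776 for Psme1, Psme2b for Psme2). Psmg3 overlaps Gm26938, also without a row under that name, by 280 nt on the same strand. Reads shared with these make the values uncertain, and older names of these genes were not searched. PA28 gamma, Psme3, which forms a separate nuclear ring, was read at 59.2 FPKM in the transgenic library and 56.6 FPKM in wild type, a ratio of 1.044 (0.958 to 1.139). PA200, Psme4, went the other way, at 83.7 FPKM in the transgenic library and 102.3 FPKM in wild type, a ratio of 0.818 (0.783 to 0.854). It is the most deeply read member, with about 3824 reads in the transgenic library and 4714 in wild type at steady state.

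Among the chaperones, Psmg4 was read at 38.8 FPKM in the transgenic library and 25.9 FPKM in wild type at steady state, a ratio of 1.498 (1.034 to 2.19). Psmg3, its partner, was read at 26.8 FPKM in the transgenic library and 20.1 FPKM in wild type, a ratio of 1.333 (0.982 to 1.82). Psmg1, partner of Psmg2, was read at 9.56 FPKM in the transgenic library and 7.02 FPKM in wild type, a ratio of 1.361 (0.902 to 2.07). The intervals of Psmg1 and Psmg3 hold 1, so their differences were not detectable at this depth. Psmd5, a chaperone of the cap base, was read at 27.2 FPKM in the transgenic library and 20.8 FPKM in wild type, a ratio of 1.307 (1.178 to 1.451). The interval lay above 1 in 9 of the 43 members, against 13.9% of genes, and below 1 in 1, Psme4, against 16.8%. Outside the activators and chaperones these were Psma5, Psmb1, Psmb4, Psmd6 and Psmd11, with ratios of 1.112 to 1.213. Intervals narrow with reads, and the genes set beside the members reach down to 1 FPKM, so these shares are not matched for depth.

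**Figure D2:**
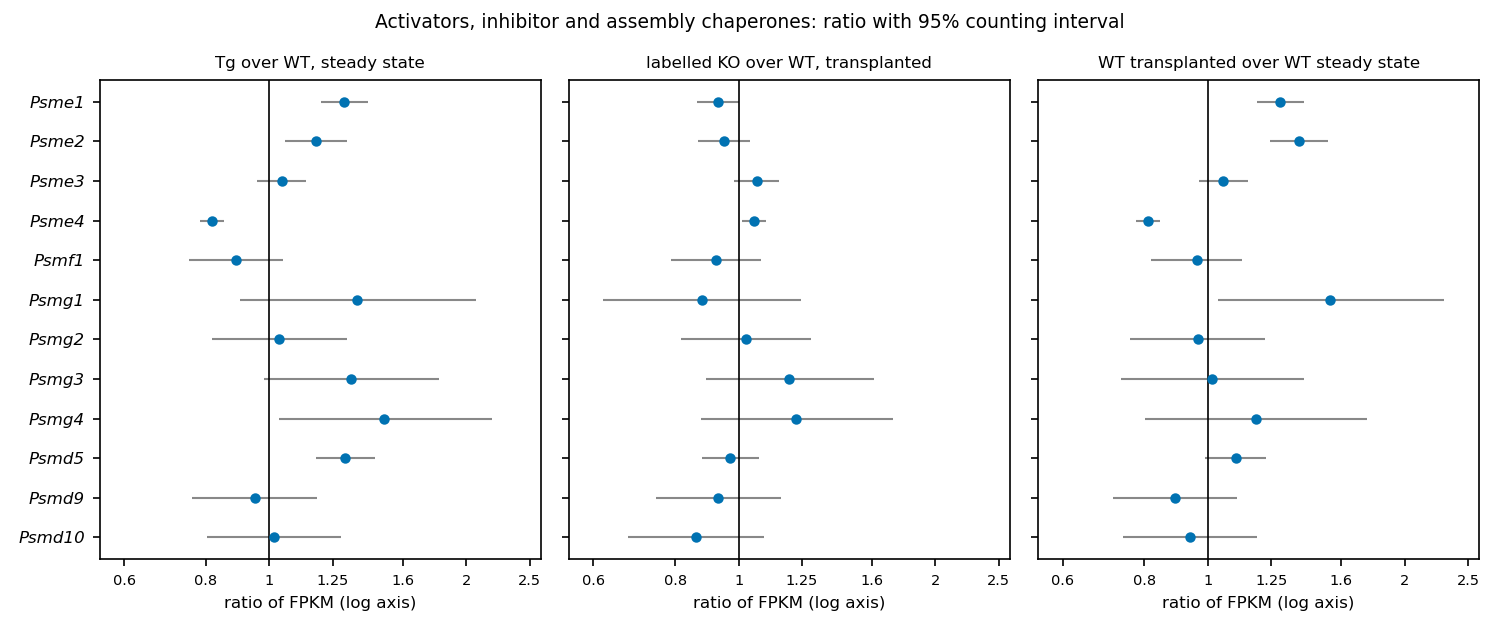
Ratio of FPKM (log axis) for the 12 activator, inhibitor and assembly genes in the 3 comparisons; points are ratios and bars 95% counting intervals from estimated reads. Psme1 lies at 1.303 and Psme4 at 0.818 in transgenic over wild type, and at 1.29 and 0.811 in wild type transplanted over steady state.

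The library labelled knockout was slightly higher than wild type after transplantation in most of the core and cap, but not in PA28 alpha and beta. The median difference of the 43 genes, knockout label minus wild type, was 0.08, against -0.03 over 10790 genes. Of them 31 were higher, against 44.0% of all genes, among them all 7 beta subunits, all 6 ATPases, 5 of 7 alpha and 8 of 11 non-ATPase subunits. At least 25% higher was 1 member, Psmb3, against 9.61% of all genes, and 0 were at least 20% lower, against 12.4%. The summed beta ring was 875.8 FPKM in the library labelled knockout and 771.9 FPKM in wild type after transplantation, a ratio of 1.135 (1.095 to 1.176). The median difference of its 7 genes was 0.20. Their median level, that of Psmb7 in both libraries, differed by only 0.017 on the log2 scale. The summed ATPases were 475.1 FPKM in the library labelled knockout and 426.5 FPKM in wild type, a ratio of 1.114 (1.072 to 1.158). Set beside these, the summed activator or assembly class had a ratio of 0.987 (0.959 to 1.015).

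Psmb3, a beta subunit without a cutting site, was read at 153.8 FPKM in the library labelled knockout and 119.8 FPKM in wild type after transplantation, a ratio of 1.284 (1.146 to 1.439). The transgenic library held 161.5 FPKM and wild type at steady state 154.9 FPKM, so wild type after transplantation stood alone below the other 3. Transcripts of 4 other annotated genes are at least 95% identical to Psmb3 over 200 nt or more. These genes have no row under their annotated names in the files, and older names were not searched. The value of Psmb3 is uncertain where reads were shared between them. Psmb6 had a ratio of 1.192 (1.043 to 1.364), Psmb5 of 1.149 (1.005 to 1.314) and Psmb7 of 1.012 (0.918 to 1.115). Among the ATPases Psmc3 had the highest ratio, 1.201 (1.10 to 1.31). The interval lay above 1 in 12 of the 43 members, against 14.5% of genes, and below 1 in 0, against 20.9%. These shares are again not matched for depth. With the same sum of FPKM the median of the members was 0.18, all 31 core and cap subunits were higher, and 6 members were at least 25% higher.

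PA28 alpha and beta lay close together in this pair, both slightly lower with the knockout label. Psme1 was read at 181.2 FPKM in the library labelled knockout and 195.0 FPKM in wild type after transplantation, a ratio of 0.930 (0.862 to 1.002). Psme2 was read at 191.3 FPKM in the library labelled knockout and 201.1 FPKM in wild type, a ratio of 0.951 (0.868 to 1.042). Psme3 was read at 63.7 FPKM in the library labelled knockout and 59.8 FPKM in wild type, and Psme4 at 87.5 FPKM in the library labelled knockout and 83.0 FPKM in wild type, a ratio of 1.054 (1.011 to 1.10) for Psme4. Over the 12 activator or assembly genes the median was -0.06 with 5 higher, and it turned to 0.05 with 8 higher under the same sum of FPKM.

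Cell cycle genes and neutrophil markers differed in the same pair. All 22 mitosis genes, such as Cdk1 at 37.3 FPKM in the library labelled knockout and 16.5 FPKM in wild type, were higher in the library labelled knockout, with a median difference of 0.98. All 22 DNA replication genes were higher too, with a median of 0.61. All 10 neutrophil markers were lower, with a median of -1.46. At steady state the 22 mitosis genes had a median of 0.35 and the 22 replication genes of 0.34, transgenic minus wild type, all higher, and the 10 neutrophil markers a median of 1.23, all higher. Their part in the values of the proteasome genes was not tested.

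**Figure D3:**
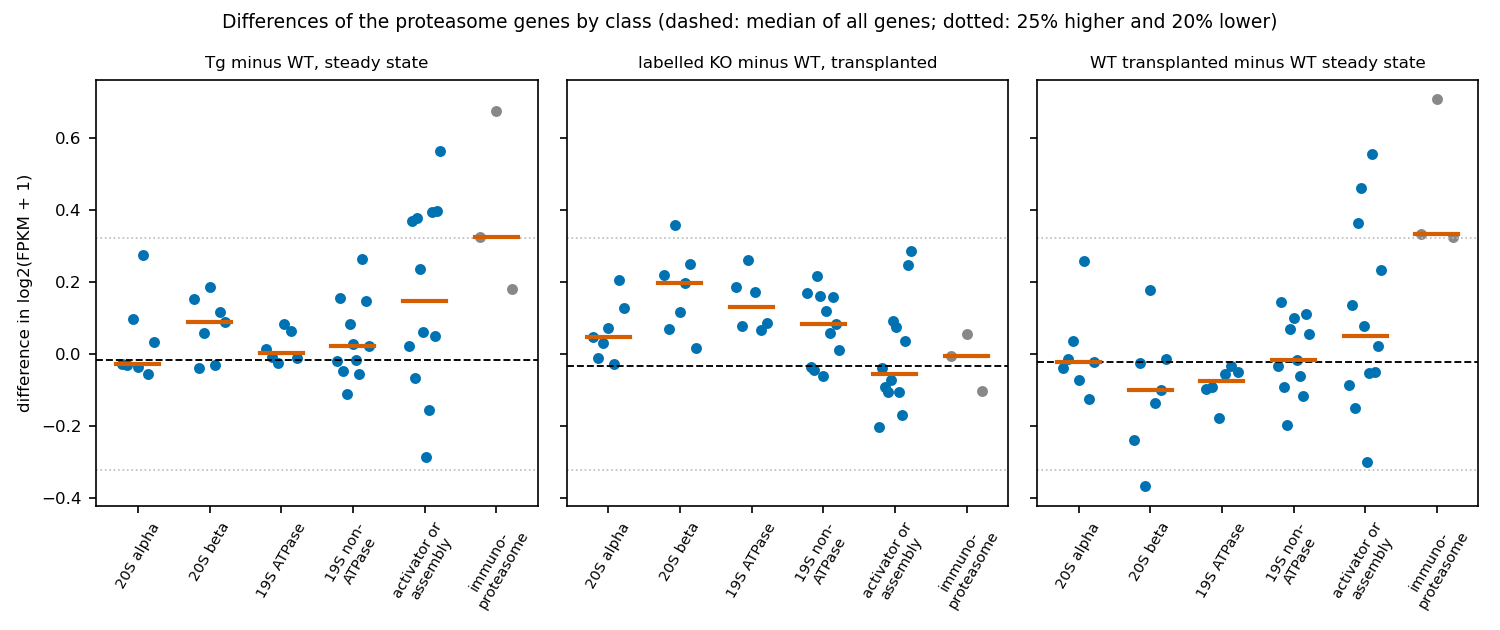
Difference in log2(FPKM + 1) of each proteasome gene, by class, in the 3 comparisons; points are genes, orange bars class medians, the dashed line the median of all genes and dotted lines 25% higher and 20% lower, with the 3 immunoproteasome genes in grey. The class medians of the beta subunits (0.20) and ATPases (0.13) lie above the dashed line (-0.03) in the middle panel, and the activator or assembly genes spread from -0.29 to 0.57 in the left panel.

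Wild type after transplantation, set against wild type at steady state, was higher in PA28 and slightly lower in the ATPases and most of the beta ring. The median difference of the 43 genes was -0.03, against -0.02 over 10835 genes, and 15 were higher, against 45.9% of all genes. At least 25% higher were 3 members (Psme1, Psme2 and Psmg1), against 12.2% of all genes, and at least 20% lower was 1, Psmb3, against 8.81%. Psme1 had a ratio of 1.29 (1.188 to 1.401) and Psme2 of 1.379 (1.244 to 1.529). Psmg1 was read at 10.8 FPKM after transplantation and 7.02 FPKM at steady state, a ratio of 1.536 (1.036 to 2.30). Psmb3 had a ratio of 0.773 (0.687 to 0.870), and Psme4 of 0.811 (0.778 to 0.846).

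All 6 ATPases were lower after transplantation, with ratios of 0.882 to 0.978, and 23 of the 31 core and cap subunits were. The summed ATPases had a ratio of 0.940 (0.903 to 0.979), the summed beta ring of 0.926 (0.892 to 0.961) and the summed alpha ring of 0.986 (0.952 to 1.022). The median difference of the 7 beta genes was -0.10, with 6 lower. Their median level, that of Psmb7 in both libraries, differed by only -0.014 on the log2 scale. Of the beta ring, Psmb4 alone was higher, at 139.2 FPKM after transplantation and 123.0 FPKM at steady state, although 3 of the 7 were higher when libraries were scaled by their upper quartile. The interval lay above 1 in 6 of the 43 members, against 15.1% of genes, and below 1 in 5, against 17.7%, with depth again not matched. With the same sum of FPKM, which moved the median of all genes to -0.12, 27 of the 31 core and cap subunits were lower, and with libraries scaled by their upper quartile 18 of the 31 were, with a median of -0.015. The 10 neutrophil markers were all higher after transplantation, with a median of 1.13, and the 22 mitosis genes all lower, with a median of -0.27, and their part in these values was not tested.

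This comparison shares wild type at steady state with the transgenic one and wild type after transplantation with the one of the knockout label, so like or opposite values in them are not independent. The shared library is visible gene by gene. Wild type at steady state held the lowest value of Psme1, Psme2, Psme3, Psmg1, Psmg3, Psmg4 and Psmd5 and the highest of Psme4, and wild type after transplantation was the lowest library of 22 members. The transgenic and knockout label comparisons share no library. In them 18 members were higher in both, 4 lower in both, 8 higher in the transgenic and lower in the knockout label comparison, and 13 the reverse. Taken singly, 26 of the 43 members were higher in the transgenic comparison and 31 in the other. Spearman's rho across the 43 genes was 0.02. The counts over both comparisons and of lowest libraries were not made over all genes, so they are not read as particular to the members.

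The immunoproteasome genes, which replace the 3 cutting subunits, lay lowest in wild type at steady state as PA28, Vpreb1 and Igll1 did. Other pre-B markers, Rag1, Rag2, Ebf1, Pax5 and Cd24a, were highest in that library. The part of the markers in the immunoproteasome values was not tested. Psmb9 was read at 130.5 FPKM in the library labelled knockout, 125.5 FPKM in wild type after transplantation, 122.8 FPKM in the transgenic library and 76.4 FPKM in wild type at steady state. The ratio of Psmb9 to Psmb6, whose place it takes, was 1.29 in the library labelled knockout, 1.479 in wild type after transplantation, 1.245 in the transgenic library and 0.840 in wild type at steady state. Only wild type at steady state thus held less of the immunoproteasome form of this pair. Psmb8 to Psmb5 was 1.831 in the library labelled knockout, 2.11 in wild type after transplantation, 1.95 in the transgenic library and 1.523 in wild type at steady state. Psmb10 to Psmb7 was below 1 in every library, from 0.684 to 0.868. The mean of Psme1 and Psme2 over Psme4 was 2.13 in the library labelled knockout, 2.39 in wild type after transplantation, 2.204 in the transgenic library and 1.452 in wild type at steady state. Ratios within a library do not move with the scaling of libraries.

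**Figure D4:**
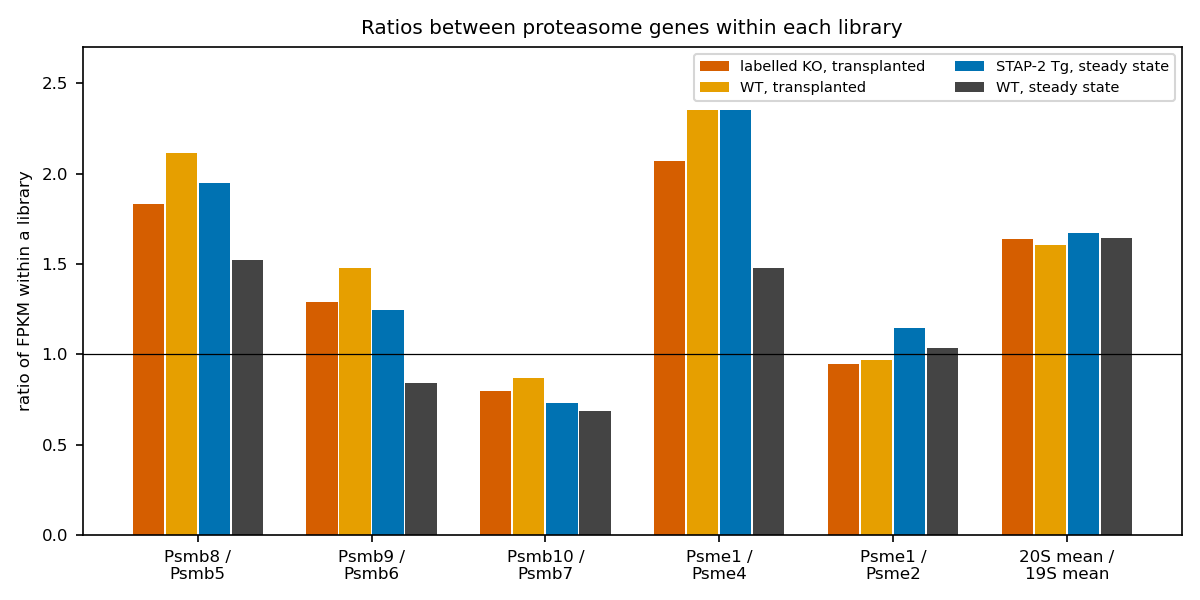
Ratios of FPKM between proteasome genes within each library; bars are single libraries and the line marks 1. Wild type at steady state is the lowest bar for Psmb8, Psmb9 and Psmb10 over their constitutive partners and for Psme1 over Psme4 (1.478), while the core over cap ratio spans 1.604 to 1.669.

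Of 13 further cap-associated and biogenesis genes, 0 were 25% higher in the transgenic comparison, against 11.2% of all genes, and 0 were 20% lower, against 8.69%, and their median was -0.03. With the knockout label 8 of 13 were higher, against 44.0% of all genes, with a median of 0.07, among them Txnl1 (0.30) and the core maturation factor Pomp (0.29), which was read at 138.9 FPKM in the library labelled knockout and 113.7 FPKM in wild type after transplantation. Lowest were Ddi2 (-0.38), the protease that activates the proteasome gene regulator Nfe2l1, and the deglycosylase Ngly1 (-0.28), and Ddi2 was the only one of the 13 at least 20% lower, against 12.4% of all genes, with none 25% higher. In wild type after transplantation against steady state the 13 had a median of -0.02, with Uchl5 (0.20) and Nfe2l1 (0.14) highest and Nfe2l2 (-0.23) and Adrm1 (-0.17) lowest. In the transgenic comparison Ube3c (0.16) and Pomp (0.12) were highest and Ngly1 (-0.28) and Ddi2 (-0.25) lowest.

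Of 12 genes that supply or activate ubiquitin, 8 were higher in the transgenic library, against 46.7% of all genes, with a median of 0.04. In the library labelled knockout 6 of the 12 were higher, against 44.0%, with a median of 0.00, and in wild type after transplantation 7, against 45.9%, with a median of 0.05. Ube2k, a ubiquitin-conjugating enzyme, was read at 13.4 FPKM in the library labelled knockout and 10.6 FPKM in wild type after transplantation, against 13.5 FPKM in wild type at steady state. Of 12 shuttle and p97 genes, which bring substrates to the cap, 0 were 25% higher or 20% lower in any of the 3 comparisons, where 9.61% to 12.2% of all genes were 25% higher and 8.69% to 12.4% were 20% lower. Vcp, the p97 ATPase, was read at 120.3 FPKM in the library labelled knockout, 112.6 FPKM in wild type after transplantation, 117.7 FPKM in the transgenic library and 118.3 FPKM in wild type at steady state.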

How the data were processed

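The authors deposited 1 table of FPKM values per library, made from the reads with Cufflinks 2.2.1, TopHat2 2.0.13, SAMtools 0.1.19 and Bowtie2 2.2.3 on mm10, per the submitters' processing notes. The headers name no unit, and FPKM is read from the values and from that list of tools. What each tool did, the annotation, filters and the use of strand in counting were not given in the sources read here.

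The difference of a gene was log2(FPKM + 1) in one library less that in its comparison library, over genes reaching 1 FPKM in either. Genes were counted at 25% higher and 20% lower, the same step on that scale. With 1 library a group there is no test and no p-value. The members and lists were chosen with earlier results of these data known. Named were the cutting subunits, the highest and lowest member of each class, members past that step and Psme1 to Psme4. Of the further cap-associated and biogenesis genes the 2 highest and 2 lowest were named in each comparison. Further members were picked with their values in view. Single genes of the ubiquitin, shuttle and mitosis lists were named outside that rule. A few genes of the other lists are not reported here.

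Depth came from the FPKM steps of low genes, using a transcript length less 210 nt. Of 2756 values of 1 to 20 reads, 68.4% came within 0.1 of a whole read, so reads are approximate. The 95% Clopper-Pearson intervals cover counting error only. They were tested on simulated reads whose number was known, so that test did not check the estimation of reads from FPKM. At 1 FPKM a transcript of 1500 nt has 9.39 to 11.2 reads. Lengths and overlaps came from GENCODE M21 (20911 of 23284 symbols matched directly, 1914 by synonym, 459 not), copies from blastn 2.17.0. Python 3.11.15, numpy 2.4.6, pandas 2.3.3, scipy 1.17.1 and matplotlib 3.10.9 were used. Other pseudocounts (0.1 and 5), 4 rescalings, other level filters and class medians were tried.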

Additional observations from a re-analysis of the deposited data

How the results depend on the processing

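No paired analysis was possible because every group has 1 library, and none could be left out for the same reason. Of 179 values recomputed, 151 stayed close to the reported value, in the same direction where the value was a difference. Differences were close if they moved no further than the counting interval of the summed level. The rule for counts was loose. With the knockout label and the same sum of FPKM, 39 members higher was called close to 31. Counts from smaller lists were compared as counts and not as shares. Some of the 151 values could hardly move. The median of the members less that of all genes changes little when libraries are rescaled. The share of all genes apart between libraries does not depend on which members are kept. Rescaling to the same sum of FPKM moved most. It reversed the transgenic minus wild type median to -0.086, with 12 of 43 members higher, 1 at least 25% higher and 1 at least 20% lower. It moved the knockout label median to 0.178 with 6 members at least 25% higher, and the median of wild type after transplantation to -0.135, with 9 higher and 3 at least 20% lower. With the 100 highest genes left out of the sum, the transgenic median was 0.036, with 26 of 43 higher. The knockout label median was then 0.091, with 1 member at least 25% higher. That of wild type after transplantation was -0.037, with 15 higher. The upper quartile gave medians of 0.061 (transgenic) and -0.008 (wild type after transplantation), and the median of gene ratios 0.107 (knockout label). A pseudocount of 5 left 3 members at least 25% higher in the transgenic library.

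Leaving out members that share sequence or exons, and counting members apart between libraries under other settings, was chosen after seeing the data. Without the 14 members whose transcript is at least 95% identical to one of another gene, which for Psmg3 and Psmd1 is an overlapping gene at the same place, 29 remained. Of these 6 were at least 25% apart between libraries; 16 were higher and 3 at least 25% higher in the transgenic library, 0 were at least 25% higher with the knockout label, and 8 were higher, 1 at least 25% higher and 0 at least 20% lower in wild type after transplantation. The same 3 (Psmd5, Psmg1 and Psmg4) were at least 25% higher in the transgenic library among the 32 members without overlapping exons. Class medians here compare the median level of a class between libraries, and are not the medians of gene differences given above. Taken as class medians and not sums, the alpha subunits turned to -0.027 (transgenic) and the activator or assembly genes to 0.064 (knockout label) on the log2 scale. Without a change of sign, the transgenic activator or assembly class moved to 0.299, with the knockout label the beta ring to 0.017 and the non-ATPase subunits to 0.122, and after transplantation the beta ring to -0.014 and the activator or assembly class to 0.044. Both beta ring values are those of Psmb7 alone. For the rescalings and the class medians the cause was not tested; the smaller lists hold fewer genes. Depth limits the low genes: Psmg1, with about 43 to 70 reads, had an interval of 0.902 to 2.07 in the transgenic comparison.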
